A study of Mus musculus with 10 samples.

Results

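The expression of the glucocorticoid receptor gene Nr3c1 and of 9 genes tied to its signalling was examined in the tibialis anterior (TA), a fast-twitch muscle of the lower hind limb, of tumor-bearing and tumor-free mice. The genes were a list fixed by name: Nr3c1, Hsd11b1, Fkbp5, Tsc22d3, Klf15, Klf9, Zbtb16, Cebpb, Glul and Sgk1, 10 of the 39179 genes listed in the count files. All 10 passed the filter on low counts and were among the 12690 genes tested. The Lewis Lung Carcinoma (LLC) group held 6 mice, injected under the skin of both flanks with cells of this mouse lung tumor line, and the Control group held 4 mice that received saline instead. Every mouse gave 1 library of total RNA. The sample labels give C57BL/6J mice of 10 weeks at injection, with muscle taken on day 23, whereas the design text of the series and the study's methods give C57BL/10 males of 8 weeks and day 22. The strain, age and day are therefore not settled. According to the study's methods, the LLC mice sequenced were those that lived to the end of the experiment, and the hour at which muscle was taken was not given in the sources used here.

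Corticosterone, the main glucocorticoid of mice, enters cells and binds a receptor held in the cytoplasm by the chaperone Hsp90 and its partners. The bound receptor moves to the nucleus and attaches to short palindromic DNA stretches, the glucocorticoid response elements, from which it raises or lowers transcription. In skeletal muscle this signalling is known for raising genes of protein breakdown and amino acid release and for lowering protein synthesis. Several of the induced genes feed back on the pathway itself.

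The libraries held between 16693209 and 21303084 counts. Totals were lower in LLC than in Control (exact two-sided permutation test over 210 splits, p = 0.0381). The mitochondrial share of counts ranged from 28.4% to 30.7% in Control and from 22.0% in LLC 1 to 27.9% in LLC 2, with no overlap (exact permutation test, p = 0.00952, the smallest this design can give). LLC 1 had both the lowest total and the lowest mitochondrial share. It also stood apart across the transcriptome, since 20.3% of all tested genes were at least 1.5-fold over their Control mean in LLC 1, against 3.14% to 11.2% in the other LLC libraries. Values without LLC 1 are therefore given beside those over all 6 LLC mice where a result rests on it. The fast myofibre markers were abundant in every library, with a summed level of 142923 to 151880 CPM (counts scaled to library size) in Control, 102333 CPM in LLC 1 and 140538 to 158406 CPM in the other LLC libraries. Of these 10 markers, 2, Acta1 and Mylpf, lay wholly below Control in LLC, against 9.57% of all tested genes. Both were named after their values were seen, and 0 lay wholly above, against 6.4%.

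Response elements near the start sites are shown first, because they are the sequences through which the receptor is known to act on such genes. From RefSeq (GRCm38.p6), 15 windows, each from 250 bases before to 50 bases after a start site, were used for 8 of the 10 genes. Of these, 6 belonged to Sgk1, 3 to Tsc22d3 and 1 each to Hsd11b1, Fkbp5, Klf15, Klf9, Cebpb and Glul. The full palindrome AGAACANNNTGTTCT, which reads the same on both strands, was found in 3 of all 32851 windows (0.00913%), and 1 of these belonged to Sgk1. It began 189 bases before that start site, on the plus strand at chr10:21993671-21993745 for the stretch printed, inside the gene but in none of its exons in GENCODE M21. The palindrome is in capitals.
Sgk1: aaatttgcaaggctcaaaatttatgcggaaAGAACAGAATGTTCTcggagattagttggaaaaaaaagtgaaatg
The single 6-base arm, AGAACA or TGTTCT, is far less specific: it was found in 19.0% of all windows and in 4 of the 15 windows here, 3 of Sgk1 and 1 of Tsc22d3. The arms of the Sgk1 palindrome are counted among these. The Tsc22d3 arm, in capitals, began 185 bases before a start site on the minus strand, within chrX:140600672-140600737, outside the annotated gene.
Tsc22d3: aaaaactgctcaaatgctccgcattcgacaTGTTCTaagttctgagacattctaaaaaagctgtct
A match of letters does not show that the receptor binds there, and elements farther from the start sites were not covered by these windows. The gene with the full palindrome, Sgk1, was not among the genes with the largest differences described below.

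Fkbp5, Glul, Cebpb, Klf15 and Tsc22d3 had the largest estimates among the 10 genes, from 1.75-fold of Control for Tsc22d3 to 3.45-fold for Fkbp5. Nr3c1, Klf9 and Sgk1 had the smallest, at 0.970-fold, 1.08-fold and 1.16-fold. The spread among the 6 LLC mice was large. None of the 10 genes passed the threshold of an adjusted p of 0.05 together with 1.5-fold (edgeR quasi-likelihood test, Benjamini-Hochberg adjustment), against 1.65% of all tested genes called higher and 3.99% called lower. At an unadjusted p under 0.05 and 1.5-fold, 5 of the 10 were higher, against 4.93% of all genes, and none was lower, against 7.45%. DESeq2 called 3 genes higher, Tsc22d3, Cebpb and Glul, against 3.06% of all genes, and none lower, against 5.23%. limma voom with sample quality weights called Fkbp5 and Glul higher, against 2.17%, and Hsd11b1 lower, against 5.69%. The median log2 fold change of the 10 genes was 0.56, with 8 of 10 above 0, and that of all tested genes was 0.00, with 50.3% above 0.

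**Figure D1:**
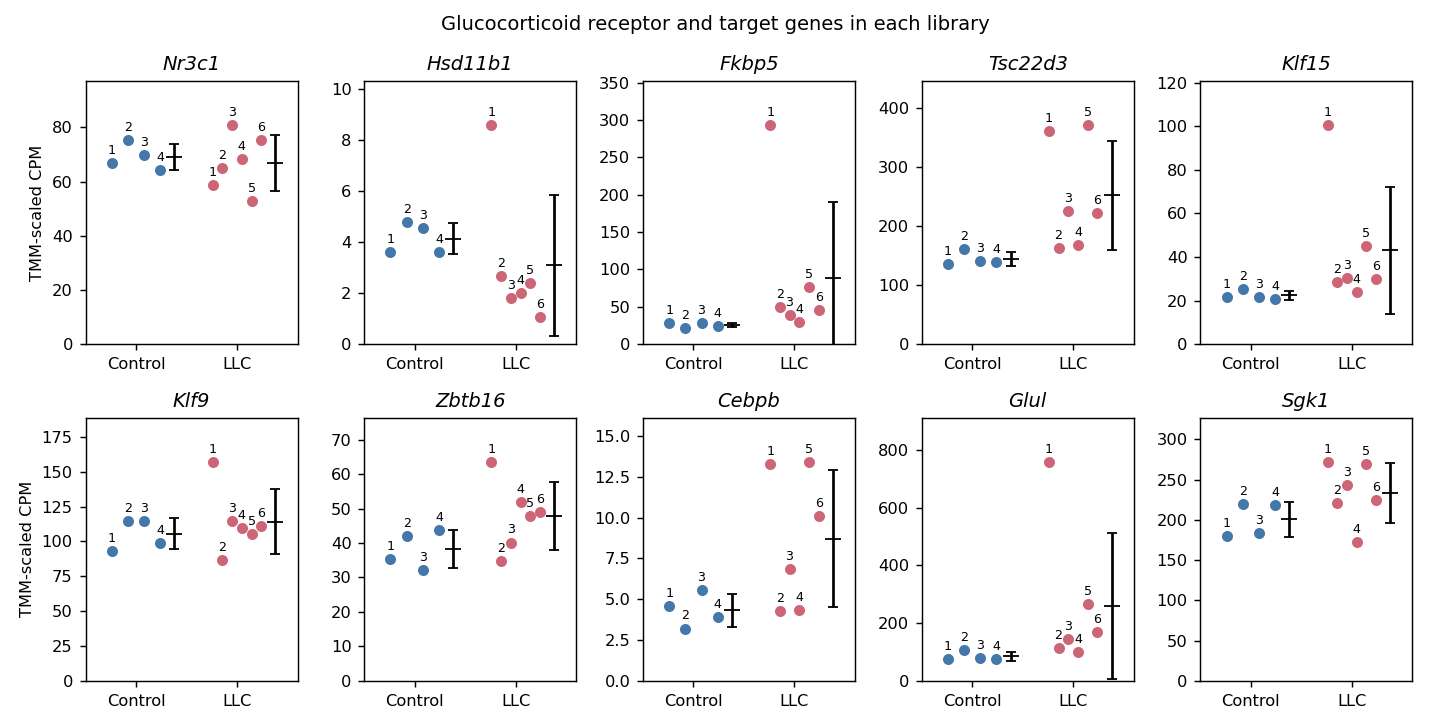
CPM (vertical axes, each from 0) of the 10 genes in each Control and LLC library, with the replicate number over each point and the group mean ± SD as the black mark and bar beside the points; bars that would pass below 0 end at the axis. LLC 1 is the highest point for Fkbp5, at 293 CPM, and for Glul, at 759 CPM, and the 2 groups do not overlap for Fkbp5 and Tsc22d3.

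Leaving out LLC 1 lowered both the fold change and its SE for Fkbp5, Glul, Cebpb, Klf15 and Tsc22d3. In that comparison Fkbp5, Tsc22d3 and Glul were called higher, against 2.28% of all genes, and Hsd11b1 was called lower, against 5.37%. The median log2 fold change of the 10 genes then fell to 0.37. Without LLC 2 or without LLC 4, Tsc22d3 alone was called, and no other single library left out gave a call among the 10 genes.

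**Figure D2:**
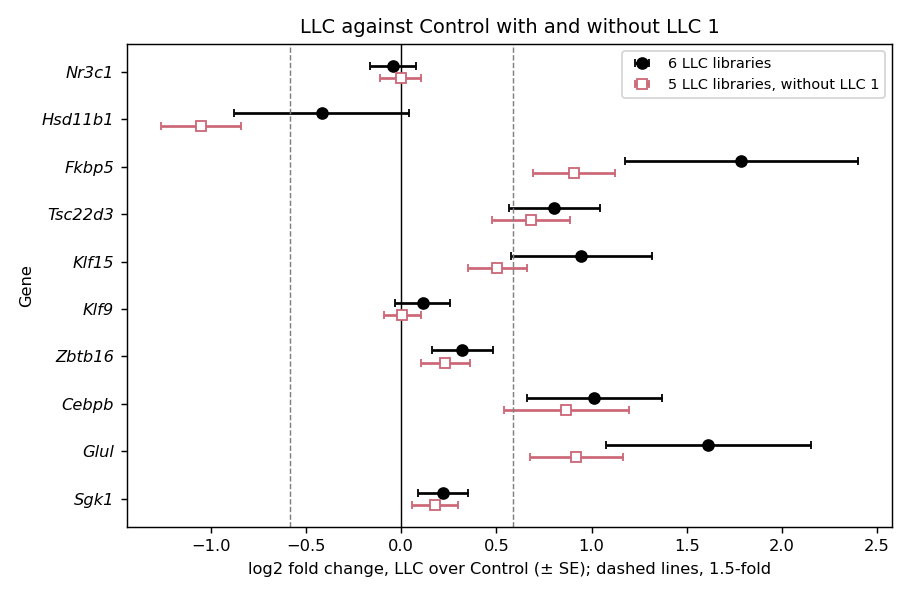
Log2 fold change of LLC over Control ± SE (edgeR) for the 10 genes, with all 6 LLC libraries and without LLC 1; dashed lines mark 1.5-fold. Fkbp5 moves from 1.79 to 0.91 and Glul from 1.61 to 0.92 when LLC 1 is left out, and Hsd11b1 moves from -0.42 to -1.05.

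Nr3c1 (ENSMUSG00000024431, chr18:39410545-39519421, minus strand), the receptor itself, was at a like level in both groups. It measured 66.7, 75.5, 69.7 and 64.2 CPM in Control 1 to 4 and 58.8, 65.1, 80.9, 68.4, 52.9 and 75.5 CPM in LLC 1 to 6. The groups overlapped, with LLC 1 and LLC 5 lowest. The log2 fold change was -0.04 ± 0.12 (SE; n = 4 and 6; edgeR adjusted p = 0.831). Its sign was not stable, being 0.043 under limma voom, 0.00074 without Control 2 and 0.015 without LLC 5.

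Hsd11b1 (ENSMUSG00000016194, chr1:193221634-193264075, minus strand) encodes the enzyme that regenerates active corticosterone from its inactive form inside cells. It measured 3.60, 4.79, 4.54 and 3.62 CPM in Control 1 to 4, and 8.59, 2.65, 1.80, 2.02, 2.38 and 1.06 CPM in LLC 1 to 6. LLC 1 lay above every Control mouse and the other 5 LLC mice lay below every one. With all 6 mice the log2 fold change was -0.42 ± 0.46 (edgeR adjusted p = 0.563). Without LLC 1 the gene was lower by a log2 fold change of -1.05 ± 0.21 (edgeR adjusted p = 0.00794). Counts for this gene were low, between 19 and 167 per library. Of the 10 fibro-adipogenic markers, 9 were called lower, against 3.99% of all tested genes, and Ly6a was called higher, against 1.65%. Their summed level was 548 to 678 CPM in Control and 180 to 253 CPM in LLC. In LLC 1, where Hsd11b1 lay above Control, the sum was below Control, at 209 CPM. The part of these cells in the Hsd11b1 values was not tested. In bulk muscle, fewer cells of a type and less RNA per cell cannot be told apart. H6pd, which supplies the cofactor of this enzyme, was above every Control library in 6 of 6 LLC libraries, as were 6.4% of all tested genes. Its log2 fold change was 0.55 ± 0.19 (edgeR adjusted p = 0.0987), and 0.37 without LLC 1 (edgeR adjusted p = 0.0170). Both were below 1.5-fold and so not called.

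Fkbp5 (ENSMUSG00000024222, chr17:28399094-28517527, minus strand) encodes a co-chaperone that lowers the affinity of the receptor for hormone. It measured 27.9, 21.6, 28.7 and 24.9 CPM in Control 1 to 4 and 293, 49.5, 39.3, 29.8, 75.9 and 45.4 CPM in LLC 1 to 6. Every LLC mouse lay above every Control mouse, LLC 4 by the smallest margin, and LLC 1 reached 11.4-fold of the Control mean. Fkbp5 had a log2 fold change of 1.79 ± 0.61 (edgeR adjusted p = 0.0975), and without LLC 1 it had 0.91 ± 0.22 (edgeR adjusted p = 0.0184).

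Tsc22d3 (ENSMUSG00000031431, chrX:140539528-140600659, minus strand) encodes the leucine zipper protein GILZ, a mediator of the anti-inflammatory action of glucocorticoids. It measured 136, 162, 141 and 139 CPM in Control 1 to 4 and 362, 163, 227, 168, 372 and 222 CPM in LLC 1 to 6. Here LLC 5 and LLC 1 were close to each other at the top, and LLC 2 lay only just above Control 2. The log2 fold change was 0.80 ± 0.24 (edgeR adjusted p = 0.0689), and 0.68 ± 0.21 without LLC 1 (edgeR adjusted p = 0.0452). Fkbp5 and Tsc22d3 were the 2 of 10 genes whose LLC values all lay above Control, against 6.4% of all tested genes. None of the 10 lay wholly below, against 9.57%. With LLC 1 set aside, Fkbp5 and Tsc22d3 lay wholly above, against 7.42% of all genes, and Hsd11b1 lay wholly below, against 10.8%.

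Of the 4 transcription factors, Klf15 and Cebpb had the larger differences. Klf15 (ENSMUSG00000030087, chr6:90462576-90475238, plus strand), which drives the breakdown of branched-chain amino acids in muscle, measured 21.6, 25.5, 21.7 and 20.5 CPM in Control 1 to 4 and 101, 28.4, 30.4, 24.1, 45.0 and 29.7 CPM in LLC 1 to 6. All but LLC 4 lay above every Control mouse, and LLC 1 was 4.50-fold of the Control mean. Klf15 thus had a log2 fold change of 0.95 ± 0.37 (edgeR adjusted p = 0.133). Without LLC 1 it had 0.50 ± 0.15 (edgeR adjusted p = 0.0474), a difference below 1.5-fold and so not called.

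Cebpb (ENSMUSG00000056501, chr2:167688915-167690418, plus strand), a factor of the acute phase response and of fat cell formation, was low in Control, at 4.61, 3.21, 5.57 and 3.89 CPM in mice 1 to 4. In LLC 1 to 6 it measured 13.3, 4.29, 6.83, 4.33, 13.4 and 10.1 CPM. LLC 1, LLC 5 and LLC 6 were high, LLC 3 was just above Control, and LLC 2 and LLC 4 lay inside the Control range. The log2 fold change was 1.02 ± 0.35 (edgeR adjusted p = 0.101), and 0.87 ± 0.33 without LLC 1 (edgeR adjusted p = 0.0946). Cebpb shares 312 exonic bases with Tmem189 on the other strand, which had 193 to 404 counts per library. Whether reads of Tmem189 entered the Cebpb counts was not tested.

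Klf9 and Zbtb16, both induced by glucocorticoids in many tissues, differed less. Klf9 (ENSMUSG00000033863, chr19:23141226-23168134, plus strand) ranged from 93.0 to 115 CPM in Control. It measured 157 CPM in LLC 1 and 86.5 to 115 CPM in the other LLC mice, so that LLC 1 alone lay above Control. Its log2 fold change was 0.11 ± 0.15 (edgeR adjusted p = 0.631), and 0.0062 without LLC 1. Zbtb16 (ENSMUSG00000066687, chr9:48654297-48836222, minus strand) ranged from 32.1 to 43.8 CPM in Control and from 34.8 to 63.6 CPM in LLC. LLC 1 was again highest, and 4 of the 6 LLC mice lay above every Control mouse. The log2 fold change was 0.32 ± 0.16 (edgeR adjusted p = 0.210), and 0.23 without LLC 1.

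Glul (ENSMUSG00000026473, chr1:153899944-153909723, plus strand) encodes glutamine synthetase, through which muscle exports nitrogen as glutamine. It measured 77.4, 107, 78.2 and 76.4 CPM in Control 1 to 4 and 759, 115, 147, 99.8, 266 and 169 CPM in LLC 1 to 6. LLC 1 was 8.96-fold and LLC 5 was 3.14-fold of the Control mean, and LLC 4 alone overlapped Control, through Control 2. Over all 6 LLC mice Glul had a log2 fold change of 1.61 ± 0.54 (edgeR adjusted p = 0.0924), and 0.92 ± 0.24 without LLC 1 (edgeR adjusted p = 0.0269). Glul shares 116 exonic bases with Teddm2 on the other strand, a gene with 3 to 14 counts per library against 1395 or more for Glul.

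Sgk1 (ENSMUSG00000019970, chr10:21882184-21999903, plus strand) encodes a kinase that acts on ion transport and, in muscle, on the upkeep of mass. It measured 180, 220, 184 and 219 CPM in Control 1 to 4 and 272, 221, 244, 172, 269 and 224 CPM in LLC 1 to 6. LLC 4 was the lowest of all 10 mice, and the other 5 LLC mice lay above every Control mouse, LLC 2 by the smallest margin. Sgk1 differed by a log2 fold change of 0.22 ± 0.13 (edgeR adjusted p = 0.290), and 0.18 without LLC 1.

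The LLC mice thus differed in how many of the 10 genes were high. The number of genes above every Control library was 9 in LLC 1, 8 in LLC 6, 7 in LLC 3, 7 in LLC 5, 5 in LLC 2 and 3 in LLC 4. The same share over all tested genes was 40.0% in LLC 1, 33.7% in LLC 6, 27.9% in LLC 3, 36.4% in LLC 5, 26.1% in LLC 2 and 27.1% in LLC 4. Genes at least 1.5-fold over the Control mean numbered 7 in LLC 1, 5 in LLC 5, 4 in LLC 3, 4 in LLC 6, 1 in LLC 2 and 0 in LLC 4, against 20.3%, 11.2%, 3.14%, 6.09%, 3.36% and 3.54% of all tested genes in the same order. The median difference of the 10 genes from the Control mean, on the log2 CPM scale, was 1.19 in LLC 1, 0.72 in LLC 5, 0.39 in LLC 6, 0.37 in LLC 3, 0.09 in LLC 4 and 0.08 in LLC 2. By this median LLC 1 was the farthest above Control, LLC 5 came next, and LLC 2 and LLC 4 were the nearest to it.

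LLC 1 held the highest of the 6 LLC values for 7 of the 10 genes, against 32.8% of all tested genes. LLC 1 and LLC 5 together held the highest pair for 6 of the 10, against 20.7%. These 2 mice also had the lowest mitochondrial shares, 22.0% and 22.9%, against 25.8% to 27.9% in the other LLC libraries. Neutrophil markers did not follow the same order. All 8 tested markers of this list of 10 were called higher, against 1.65% of all tested genes. The list summed to 0.741 to 2.57 CPM in Control and 34.1 to 73.2 CPM in LLC. The defining marker Ly6g was not tested, with at most 4 counts in a library. It was at 0 in every Control library and in LLC 3. LLC 4, with the fewest genes above Control, had a neutrophil sum of 72.6 CPM, close to the 73.2 CPM of LLC 5, whereas LLC 1 had 40.3 CPM. The part of mitochondrial share and of neutrophils in these results was not tested.

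**Figure D3:**
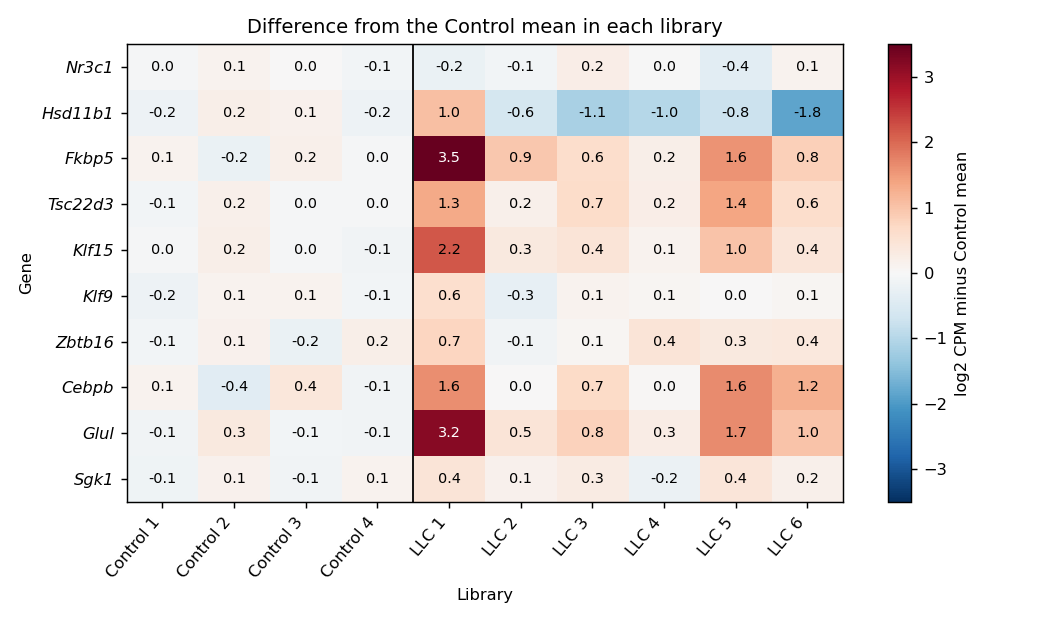
Difference of log2 CPM from the Control mean (color scale) for the 10 genes in rows and the 10 libraries in columns. The column of LLC 1 is raised for 9 genes and lowered for Nr3c1, the medians over the 10 genes run from 1.19 in LLC 1 and 0.72 in LLC 5 down to 0.09 in LLC 4 and 0.08 in LLC 2.

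Per kilobase of exon, the order of the levels in Control was Sgk1 at 40.9 ± 4.44 (SD, n = 4) CPM per kb, Tsc22d3 at 33.3 ± 2.76, Glul at 25.5 ± 4.44, Klf9 at 21.9 ± 2.32, Nr3c1 at 8.98 ± 0.630, Klf15 at 8.01 ± 0.782, Zbtb16 at 7.26 ± 1.04, Cebpb at 2.87 ± 0.672, Fkbp5 at 2.72 ± 0.340 and Hsd11b1 at 0.973 ± 0.146. Neighbours among the first 4 genes overlapped in their ranges, as did Nr3c1 with Klf15, Klf15 with Zbtb16, and Cebpb with Fkbp5. The steps from Klf9 to Nr3c1, from Zbtb16 to Cebpb and from Fkbp5 to Hsd11b1 exceeded the spread between mice. In LLC the order at the top changed, with Glul at 78.0 ± 75.8 (SD, n = 6) CPM per kb, Tsc22d3 at 58.1 ± 21.4 and Sgk1 at 47.7 ± 7.59, whose ranges overlapped. Without LLC 1, Glul no longer led: Tsc22d3 was at 53.1 ± 19.5 (SD, n = 5) CPM per kb, Glul at 47.9 ± 19.7 and Sgk1 at 46.1 ± 7.31. Exon length was the union over all annotated transcripts, so that a gene with long unused exons has a level per kb that is too low.

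**Figure D4:**
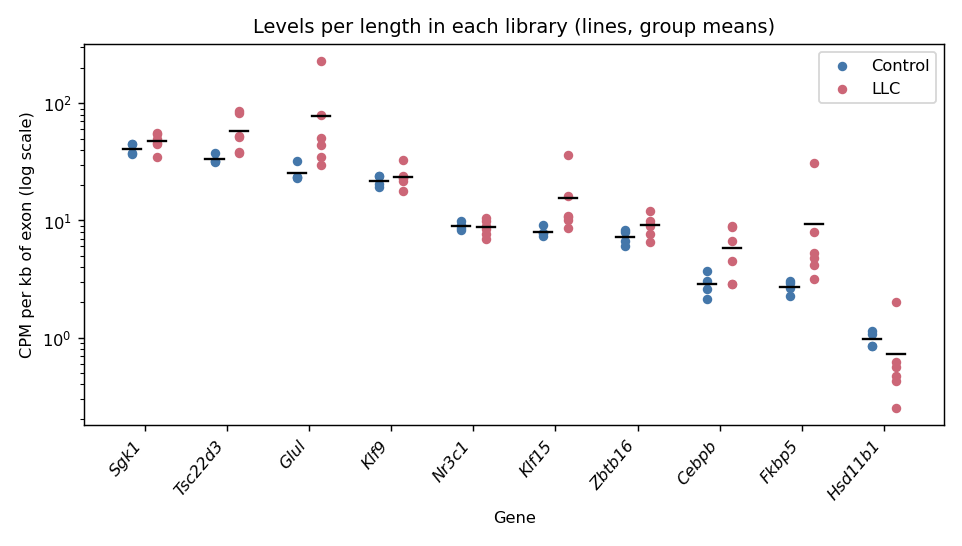
CPM per kb of exon (log scale) of the 10 genes in each library, with lines for the group means, ordered by the Control mean. Levels in Control run from 0.973 for Hsd11b1 to 40.9 for Sgk1, and the LLC points run from 3.15 to 31.0 for Fkbp5 and from 0.250 to 2.02 for Hsd11b1.

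The genes around the receptor gave few calls. Of 10 chaperones of the receptor, none was called by edgeR, DESeq2 called Ptges3 and Hsp90ab1 higher, against 3.06% of all genes, and limma voom called none. An unadjusted p under 0.05 was reached by 4 of them, Ptges3, Hsp90ab1, Hsp90aa1 and Ppid, named after their values were seen, against 27.4% of all tested genes. For 3 of the 10 chaperones, Ptges3, Hsp90ab1 and Ppid, all LLC values lay above Control, against 6.4% of all tested genes. For 0 they lay wholly below, against 9.57%. The median log2 fold change was 0.19, all 10 were above 0, and Fkbp4, the co-chaperone that carries the receptor to the nucleus, had 0.12 ± 0.09 (edgeR adjusted p = 0.410). Without LLC 2 edgeR called Ptges3 higher. Of 6 genes of steroid metabolism and transport, 4 were tested and none was called by the same 3 tools, with 2 at an unadjusted p under 0.05 (H6pd and Abcb1a, the latter named after its values were seen), against 27.4% of all tested genes. Nr3c2, the mineralocorticoid receptor, which also binds corticosterone, had -0.38 ± 0.21 (edgeR adjusted p = 0.256). Hsd11b2, which inactivates corticosterone, had 4 counts in all, spread over 3 of the 10 libraries, and was not tested.

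A wider list of 31 genes known to be induced by glucocorticoids, several of them also by fasting or inflammation, had 29 tested members, Tat and Pck1 falling short of the filter on low counts. The list was chosen with earlier results of these data known, so the counts below are descriptive and test nothing. Of the 29 tested members, 5 were called higher and none lower, against 1.65% and 3.99% of all genes. Their median log2 fold change was 1.15, and 26 of 29 were above 0. At an unadjusted p and 1.5-fold 18 were higher, against 4.93% of all genes. DESeq2 called 11, against 3.06%, and limma voom 10, against 2.17%, with none lower. Without LLC 1 the count rose to 11, against 2.28%, and the median was 0.68. It rose to 9 without LLC 4, and it was 1 without LLC 5, 2 without LLC 6 and 1 on leaving out any single Control mouse. Without Control 4, Pck1 passed the filter and was called lower. LLC 1 was the highest LLC mouse for 21 of the 29 genes, against 32.8% of all tested genes, and LLC 4 the lowest for 19, against 16.3%.

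Of the 5 genes called, Gpx3 was the one that kept its call in all 21 alternatives. Among these, the unadjusted p and the adjusted p alone only loosen the threshold, so no call could be lost there. Gpx3, a secreted glutathione peroxidase, was at 95.4 ± 14.8 (SD, n = 4) CPM in Control and 287 ± 96.4 (SD, n = 6) CPM in LLC, a log2 fold change of 1.59 ± 0.24 (edgeR adjusted p = 0.00218). Fbxo32, the ubiquitin ligase atrogin-1 of muscle protein breakdown, was at 269 to 385 CPM in Control and 3630, 865, 788, 517, 1756 and 1001 CPM in LLC 1 to 6, a log2 fold change of 2.03 ± 0.49 (edgeR adjusted p = 0.0307). Without LLC 1 the log2 fold change of Fbxo32 was 1.51 (edgeR adjusted p = 0.00545, called). Its partner ligase Trim63, or MuRF1, had a log2 fold change of 2.19 ± 0.66 and did not pass (edgeR adjusted p = 0.0718), with LLC 1 at 2529 CPM and LLC 4 at 211 CPM. Trim63 was called higher by DESeq2, by limma voom, without LLC 4, and without LLC 1, where its log2 fold change was 1.46 (edgeR adjusted p = 0.0338). Arrdc2, an arrestin family gene, rose by a log2 fold change of 2.05 (edgeR adjusted p = 0.0374), and by 1.67 without LLC 1 (edgeR adjusted p = 0.0200, called). Pdk4, which restrains glucose oxidation, rose by 1.23 on the log2 scale (edgeR adjusted p = 0.0480), and Ppp1r3c, a glycogen-targeting phosphatase subunit, by 1.04 (edgeR adjusted p = 0.0429). The calls of Fbxo32, Arrdc2, Pdk4 and Ppp1r3c were lost on leaving out any 1 of the Control mice or LLC 5, and those of the last 3 also without LLC 3 or LLC 6.

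Other genes of the list had large estimates with large errors. The metallothionein Mt2 had a log2 fold change of 4.68 ± 1.34 (edgeR adjusted p = 0.0591) and its neighbour Mt1 had 3.10 ± 1.04 (edgeR adjusted p = 0.0937), and both were highest in LLC 1, at 144 and 141 CPM. Without LLC 1 the log2 fold change of Mt2 was 3.04 (edgeR adjusted p = 0.0269, called) and that of Mt1 was 1.73 (edgeR adjusted p = 0.0752, not called). DESeq2 called both and limma voom called Mt2. Cebpd, a partner of Cebpb, had 2.73 ± 0.75 (edgeR adjusted p = 0.0506), with 81.7 CPM in LLC 1 and 66.1 CPM in LLC 5 against 4.00 to 6.57 CPM in Control. It was called by DESeq2 and limma voom, and on leaving out LLC 1, LLC 2, LLC 3 or LLC 4, with 2.23 without LLC 1 (edgeR adjusted p = 0.0352). Ddit4, an inhibitor of growth signalling through mTOR, had 2.35 ± 0.86 (edgeR adjusted p = 0.115), and 1.70 without LLC 1 (edgeR adjusted p = 0.120). The transcription factor Foxo1, which drives Fbxo32 and Trim63, had 1.43 ± 0.54 (edgeR adjusted p = 0.121). Without LLC 1 its log2 fold change was 0.68 and it was called higher (edgeR adjusted p = 0.0274). The clock gene Per1 had 0.98 ± 0.39 (edgeR adjusted p = 0.135), and was called without LLC 2. Without LLC 1 Per1 had 0.86 (edgeR adjusted p = 0.134). Dusp1, a phosphatase of the MAP kinases and a classical rapid target, had -0.45 ± 0.37 (edgeR adjusted p = 0.428), and was lowest of all mice in LLC 1, at 13.1 CPM. Without LLC 1 the log2 fold change of Dusp1 was -0.26 (edgeR adjusted p = 0.521).

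**Figure D5:**
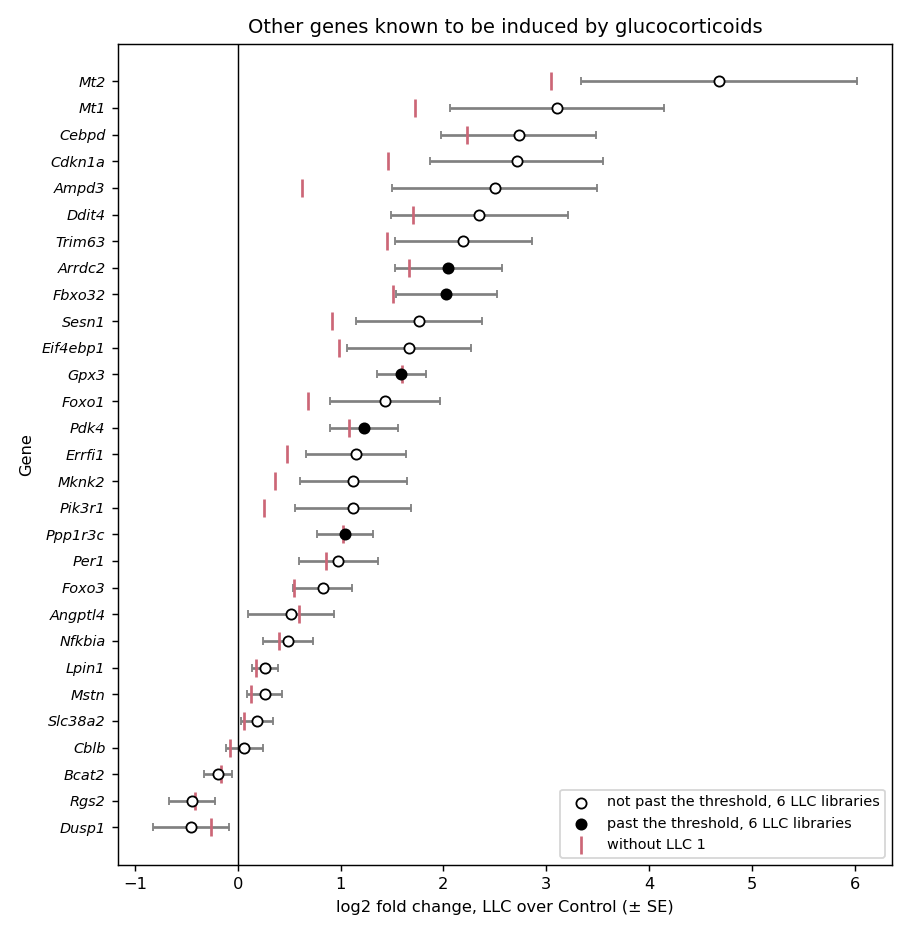
Log2 fold change of LLC over Control ± SE (edgeR) for the tested genes of the wider list of genes induced by glucocorticoids, with calls marked by color. The 5 called genes are Fbxo32, Arrdc2, Gpx3, Pdk4 and Ppp1r3c, and 26 of the 29 estimates lie above 0.

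Of 12 genes known to be repressed by glucocorticoids, mostly inflammatory and also listed with earlier results known, 6 were tested. All 6 had an unadjusted edgeR p under 0.05, in either direction, against 27.4% of all tested genes. Values of 2 lay wholly above Control, against 6.4%, and of 2 wholly below, against 9.57%. The median log2 fold change was 0.14, and -0.54 without LLC 1, where Sele fell short of the filter. DESeq2 called 3 higher and 2 lower, against 3.06% and 5.23% of all genes, and limma voom 2 and 2, against 2.17% and 5.69%. With edgeR, Nos2, the inducible nitric oxide synthase, was called lower, against 3.99%. Its log2 fold change was -0.70 ± 0.16 (edgeR adjusted p = 0.0269), a call lost on leaving out Control 1, Control 3, Control 4, LLC 5 or LLC 6. Igf1, named after its values were seen, had -1.06 ± 0.37 (edgeR adjusted p = 0.0999), and -0.85 without LLC 1 (edgeR adjusted p = 0.0281, called). The cytokine Il1b and the endothelial adhesion molecule Sele were called higher, against 1.65% of all genes. Both were close to the limit of detection in Control, Il1b at 0.05 to 0.11 CPM and Sele at 0 in 3 of 4 libraries, and reached 0.508 to 2.22 CPM and 0.282 to 1.03 CPM in LLC, so no fold is given. The neutrophil markers rose in the same mice, and the part of these cells in the Il1b values was not tested. Sele fell short of the filter on low counts, and so lost its call, when LLC 1, LLC 4, LLC 5 or LLC 6 was left out. Of 15 clock genes, which glucocorticoids help to set, none was called by edgeR, DESeq2 or limma voom, 2 had an unadjusted p under 0.05 (Tef and Cry2, named after their values were seen) against 27.4% of all tested genes, and the median log2 fold change was -0.01.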

How the data were processed

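Total RNA of TA muscle from 4 Control and 6 LLC mice was sequenced by the authors as stranded total RNA libraries in paired-end mode. According to the study's methods and the submitters' processing notes, reads were checked with FastQC, aligned to mm10 with TopHat2 and counted per gene with HTSeq. The deposited values are raw counts per gene, unnormalised. They list Ensembl gene identifiers although the methods name RefSeq genes, so which annotation release was used is not given in the sources used here. The study's methods give the default settings of HTSeq. Whether the deposited counts kept the strands apart was not tested. Total counts per library, given with the results, limit the precision for genes with few counts.

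Counts were analysed with edgeR 4.0.16 in R 4.3.3, using filterByExpr (minimum count 10), TMM scaling and the quasi-likelihood test with group as the single term. P-values were adjusted by the Benjamini-Hochberg method over all 12690 genes tested, and a call needed an adjusted p of 0.05 and 1.5-fold. SE is the size of the log2 fold change divided by the square root of F. CPM are TMM-scaled, with a prior count of 2 on the log2 scale. GENCODE M21 gave symbols for 37693 of 39179 identifiers, along with GRCm38 (mm10) coordinates and exon lengths. Mice are the replicates.

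The genes and lists were chosen with earlier results of these data known. Genes named were the 10 members, 14 genes fixed by name, and up to 6 per list among those called with the largest difference; genes outside this rule are said to be so. Alternatives were median-of-ratios and upper-quartile scaling, mitochondrial genes left out, no filter or a filter of 10 counts in every sample, DESeq2 1.42.0, limma 3.58.1 voom with quality weights, unadjusted p, adjusted p alone, a replicate block, and each mouse left out. The fit of samples 1 to 4 without the block was added after seeing the data. Results for a list of receptor coregulators are not reported here.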

Additional observations from a re-analysis of the deposited data

Results flagged for a closer look

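Glul in Control 2, at 107 CPM, stood apart from the other 3 Control mice, which lay between 76.4 and 78.2 CPM. The gap to its nearest neighbour took up 0.929 of the range of the Control group, above the critical value for 4 samples. It was the only such value among the 20 sets of samples searched, 10 genes in each of 2 groups, and chance gives 1 in 20. LLC 4, at 99.8 CPM, was the LLC mouse below Control 2.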

How the results depend on the processing

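Of the 10 genes, 0 were called higher and 0 lower, and this held under median-of-ratios and upper-quartile scaling, without mitochondrial genes, without the filter on low counts, with 10 counts required in every sample and with the adjusted p alone. The number called higher was 3 with DESeq2, 2 with limma voom and 5 with the unadjusted p, and ranged from 0 to 3 with 1 mouse left out. The number called lower was 1 with limma voom and ranged from 0 to 1 with 1 mouse left out. Fold changes of 9 of the 10 genes kept their direction in all 21 alternatives, and that of Nr3c1 turned to 0.043 with limma voom and ranged from -0.11 without LLC 3 to 0.015 without LLC 5, at 0.00074 without Control 2. The unadjusted p and the adjusted p alone reuse the fold changes of the main fit, so no direction could change there. Across all genes 715 were called, against 475 with 10 counts in every sample, 1572 with the unadjusted p, and 415 to 966 with 1 mouse left out. The cause of these shifts was not tested. Of the members, Hsd11b1 had as few as 19 counts in a library, so that depth limits it most.

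With the replicate number as a block, which uses samples 1 to 4 of each group, 107 genes were called across all genes, and 299 on the same 8 samples without the block. None of the 10 genes was called in either. Deviations of same-numbered samples from their group means had r = -0.03, 0.01, -0.08 and 0.13 for numbers 1 to 4. Whether same-numbered samples were handled together was not tested, and these 4 values cannot decide it.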

Other observations

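Among 10383 genes with an average log2 CPM of 1 or more, the genes whose differences from the Control mean over the 10 libraries were nearest to those of Fkbp5 were Sesn1, Foxo1 and Retreg1, with root mean square differences of 0.248, 0.250 and 0.258 on the log2 scale, against a median of 1.31 over all genes compared. For Glul the nearest were Sesn1, Arrdc3 and Tekt1, at 0.184, 0.238 and 0.241, against a median of 1.23. For Tsc22d3, Klf15 and Cebpb the nearest were Kctd20, Dnttip2 and Acot2, at 0.128, 0.123 and 0.229, against medians of 0.698, 0.812 and 0.890. These members and genes were chosen after their values were seen. The nearest of 10383 genes lie below the median by construction, so the medians give a scale and no test. Sesn1, a stress-induced inhibitor of growth signalling that stood on the wider list of induced genes, was at 13.9 ± 1.08 (SD, n = 4) CPM in Control and 47.2 ± 52.8 (SD, n = 6) CPM in LLC, and without LLC 1 it was called higher, with a log2 fold change of 0.92 (edgeR adjusted p = 0.0353).

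Of the adipocyte markers, 7 of 10 were tested and none was called by edgeR, DESeq2 or limma voom, with 2 at an unadjusted p under 0.05, against 27.4% of all tested genes. Their summed level, which Car3 dominates, a gene that myofibres also express, was 2913 to 3094 CPM in Control, 1073 CPM in LLC 1 and 2190 to 2789 CPM in the other LLC libraries. Endothelial markers summed to 397 to 475 CPM in Control and 396 to 449 CPM in LLC. Of these 10, 1, Kdr, was called lower, against 3.99% of all tested genes, with a log2 fold change of -1.13 (edgeR adjusted p = 0.0227). DESeq2 and limma voom each called 1 lower, against 5.23% and 5.69%. An unadjusted p under 0.05 was reached by 7, in either direction, against 27.4%. Values of 4 lay wholly below Control, against 9.57%. Macrophage markers summed to 28.2 to 44.0 CPM and 23.1 to 42.9 CPM. Of the 9 tested, 1, Mrc1, was called lower, against 3.99% of all tested genes, with a log2 fold change of -1.05 (edgeR adjusted p = 0.00335). DESeq2 and limma voom each called 3 of the 9 lower, against 5.23% and 5.69%. Kdr and Mrc1 were named after their values were seen. The 10 lymphocyte markers, none of which passed the filter on low counts, summed to 0.876 to 1.19 CPM and 0.508 to 1.06 CPM. Of the 10 fast myofibre markers, edgeR and DESeq2 called none, and limma voom called 1 lower, against 5.69% of all tested genes. Without LLC 1 edgeR called 1 lower, against 5.37%. This was Myh1, named after its values were seen, with a log2 fold change of -0.81 (edgeR adjusted p = 0.0448).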
